A study of Mus musculus with 4 samples.

Results

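The transcripts of 8 leukocyte adhesion molecules were followed through the endothelial cells (ECs) of the mouse left ventricle. These were Selp and Sele, which encode P-selectin and E-selectin, Vcam1, Icam1 and Icam2 of the immunoglobulin superfamily, and Pecam1, F11r and Cd34, which encode CD31, JAM-A and CD34. They were picked by symbol, with earlier results of these data known, and all 8 were found once each among the 31253 genes of the count tables. The data were 4 single-cell libraries of RFP-positive cells sorted from left ventricles, 2 from control (NC) mice and 2 from mice with heart failure with preserved ejection fraction (HFpEF). Fat supplied 10% of the calories fed to NC mice and 60% of those fed to HFpEF mice, which also took 0.5 mg/ml L-NAME, an inhibitor of nitric oxide synthase, in their water, and feeding lasted 20 weeks. All mice carried Cdh5-CreER, a tamoxifen-inducible recombinase driven by the promoter of an endothelial cadherin, and a tdTomato reporter behind a stop cassette. They also carried at least 1 Scarb1 allele with exon 2 flanked by loxP sites, which was made in C57BL/6N mice. By the paper's account, tamoxifen injection led ECs to express RFP and also knocked out SR-B1, the protein of Scarb1, in them. No library can therefore be taken as a control with unaltered Scarb1. In its single-cell data the paper compares 4 groups, with 1 or with both Scarb1 alleles floxed under each diet. The labels give the diet of a library but neither its genotype nor how many mice were pooled. The 2 libraries under each diet could therefore be 1 of each genotype rather than replicates. Diet was compared without regard to genotype. The p-values measure the spread between these libraries, in which genotype and differences between mice cannot be told apart.

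Leukocytes leave the blood in steps. Selectins on the endothelium catch passing cells and let them roll, ICAM and VCAM proteins then bind integrins and arrest them, and junctional proteins such as PECAM-1 and JAM-A take part in their passage between ECs. P-selectin is also stored in Weibel-Palade bodies together with von Willebrand factor and moves to the surface within minutes of stimulation, so its transcript is not a measure of surface protein. In most tissues rolling and arrest take place in venules rather than in arterioles or capillaries. CD34 is a sialomucin of capillary endothelium and of progenitor cells.

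After the cell filter (over 200 genes and under 20% mitochondrial UMIs) 5454 to 20882 cells remained per library, with median unique molecular identifier (UMI) counts per cell of 3754 and 4127 under NC, compared with 1736.5 and 1619 under HFpEF. ECs were clustered without the 8 genes and classed by other markers, which gave 20279 capillary, 4843 artery, 1916 vein, 209 endocardial and 97 lymphatic ECs. The classes were named by these markers, so the marker levels describe the classes and are no independent check. The summed level of the 10 vein markers was 1382 CPM in vein ECs against 217.8 CPM in capillary ECs, where CPM stands for UMIs of a gene per 1e+06 UMIs of the class. Vein ECs also held 29630 CPM of the 11 capillary markers, against 40500 CPM in capillary ECs, so the 2 classes were not cleanly apart. Endocardial ECs held 8792 CPM of the vein markers, more than the vein class and more than the 4916 CPM of their own 8 markers, and 4325 CPM of the 7 fibroblast markers. A further 10062 cells in clusters led by hemoglobin or cardiomyocyte transcripts, 12.2% and 10.8% under NC, compared with 32.8% and 35.6% of ECs under HFpEF, were given no class. Any 2 libraries shared 9 to 39 cell barcodes.

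The results turn on the selectins, which both lie on chromosome 1. Sele lies at chr1:164048234-164057677 and Selp at chr1:164115264-164150026, both on the plus strand of GRCm38, the build of the authors' mm10 counts. Their promoters are shown because these 2 genes changed together. Each runs from 250 bases before to 50 bases after the RefSeq start in GRCm38.p6, 5′ to 3′ on the gene's strand. Matches to TATAAA (both strands searched) and to TGANTCA, which is its own reverse complement, are in capitals. TGANTCA takes any middle base, where the core of AP-1 sites has C or G.
Sele promoter, chr1:164047984-164048283, plus strand: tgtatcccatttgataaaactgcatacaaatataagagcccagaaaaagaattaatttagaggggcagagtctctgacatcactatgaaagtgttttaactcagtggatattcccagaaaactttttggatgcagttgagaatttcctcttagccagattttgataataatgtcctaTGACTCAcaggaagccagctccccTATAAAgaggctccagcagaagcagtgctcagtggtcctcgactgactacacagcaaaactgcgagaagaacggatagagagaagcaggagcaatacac
Selp promoter, chr1:164115014-164115313, plus strand: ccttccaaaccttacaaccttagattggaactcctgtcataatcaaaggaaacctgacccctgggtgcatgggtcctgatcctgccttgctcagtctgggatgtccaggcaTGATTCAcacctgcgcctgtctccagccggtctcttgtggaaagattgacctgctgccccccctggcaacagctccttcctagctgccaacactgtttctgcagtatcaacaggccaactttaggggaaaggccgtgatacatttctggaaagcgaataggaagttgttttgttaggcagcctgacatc
The Sele window held TATAAA at 49 bases before the start and a TGANTCA match 73 bases before it, and no 2 of these matches overlapped. In the Selp window the TGANTCA match lay 139 bases before the start, and TATAAA was not among the window's letters. This match reads TGATTCA, so its middle base is not that of the AP-1 core. Over all 32851 promoters of the table, 13.6% held TATAAA, 7.81% TGANTCA and 4.51% the NF-κB decamer, which was searched by its consensus on both strands and matched neither selectin window. Only exact matches to that consensus were counted, so the search cannot say that either window lacks an NF-κB site. Of the 5 genes with a promoter in the table, F11r also held TGANTCA, and Icam1 held TATAAA.

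The 8 genes fell into a group that was concentrated in veins and endocardium and a group that was spread over all ECs. Selp was measured at 103.3 and 66.3 CPM in the vein ECs of the NC libraries and 182.5 and 267.9 CPM in those of the HFpEF libraries, whereas no library exceeded 1.88 CPM in capillary ECs or 10.2 CPM in artery ECs. Its mean in endocardial ECs was 357.7 CPM (SD 400.3, n = 4 libraries), with values between 16.0 and 904 CPM that overlapped those of vein ECs. Within a library the log2 ratio of vein to capillary ECs, with 1 CPM added to both, was 6.13 ± 0.41 for Selp (mean ± SD, n = 4) and above 0 in 4 of 4 libraries. Sele had the same distribution, with means of 65.8 CPM in vein, 60.2 CPM in endocardial, 1.57 CPM in artery and 1.24 CPM in capillary ECs and a log2 ratio of vein to capillary ECs of 4.90 ± 0.42. No Sele UMI was found in 97 lymphatic ECs, which allows up to 6.89 CPM (3 UMIs, counting error only).

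Vcam1, the ligand of the integrin VLA-4, followed a graded order over the classes. Endocardial ECs held 1598 ± 213 CPM (SD, n = 4 libraries), vein ECs 392 ± 79.0, artery ECs 64.2 ± 15.02 and capillary ECs 26.5 ± 7.80, and none of these neighbours overlapped in their ranges over libraries. Lymphatic ECs had no Vcam1 UMI, with the same limit of 6.89 CPM. Icam1, the ligand of the integrins LFA-1 and Mac-1, was measured in every class. Its means ran from 1274 CPM in vein ECs through 1011 in endocardial, 645 in artery and 588 in capillary ECs to 500 in lymphatic ECs, and each class overlapped the next in range. The log2 ratio of vein to capillary ECs was nevertheless above 0 in all 4 libraries for Icam1 (1.12 ± 0.17) and Vcam1 (3.86 ± 0.18).

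**Figure D1:**
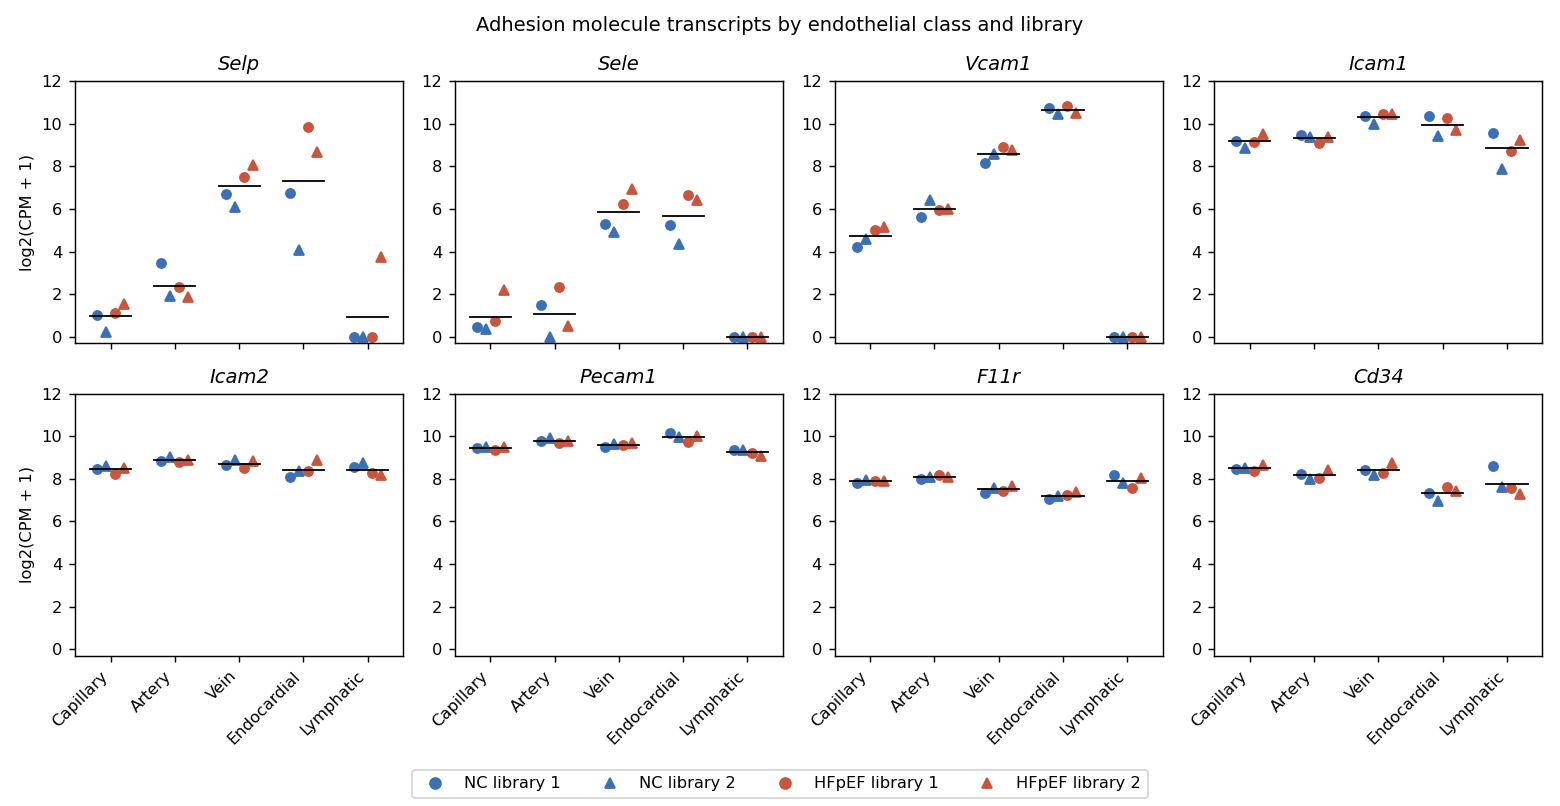
Level of each transcript, as log2(CPM + 1), in 5 endothelial classes; blue symbols are NC and red symbols HFpEF libraries, and bars are the mean of the 4 log2 values. Selp, Sele and Vcam1 are high in vein and endocardial ECs and low in capillary ECs, while Icam2, Pecam1, F11r and Cd34 stay within a narrow band.

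The broadly expressed group differed between classes by far less than the selectins. Pecam1, a homophilic junction protein that the study also used to recognise ECs, was measured at 695 CPM in capillary, 777 CPM in vein, 884 CPM in artery and 1014 CPM in endocardial ECs, and the ranges of capillary, vein and artery ECs did not overlap. Icam2, a constitutive ligand of LFA-1, was highest in artery ECs at 472 ± 33.7 CPM and was higher there than in vein ECs in 4 of 4 libraries, although the ranges overlapped. F11r was lowest where the selectins were highest. It ran from 270 CPM in artery, 241 CPM in lymphatic and 236 CPM in capillary ECs to 181 CPM in vein and 147 CPM in endocardial ECs, with no overlap between capillary and vein ECs. Cd34 was highest in capillary ECs (361 ± 33.2 CPM) and lowest in endocardial ECs (162 ± 31.3 CPM).

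Finer clusters showed where within a class the levels lay. Artery ECs formed 2 clusters, of which E11 (950 cells, led by Mgp, Clu and Gja5) held 243 CPM of Vcam1 and 24.0 CPM of Selp, while E5 (3893 cells, led by Cox4i2, Hey1 and Gja4) held 14.2 CPM and 0.193 CPM. Icam1 was likewise higher in E11 (1044 CPM) than in E5 (534.5 CPM). Among the 7 capillary clusters Icam1 ranged from 291.5 CPM in E6, which was led by Aplnr and Aqp1, to 1140 CPM in E9, whose leading genes included Noct and Hsph1. Cd34 stood at 820 ± 105 CPM in E10, which was led by Apln, a gene of angiogenic tip cells, and Pgf, and at 283 to 392.5 CPM in the other 6. Across the 12 EC clusters, the genes with the pattern most like Selp were Vwf (Pearson r = 0.97), H2-Ab1 and Bmp4, and those for Sele were Bmp4, Vwf and Ptgs1. Vcam1 was most like Vwf, Emp3 and Bmp4. Selp and Sele correlated with each other at r = 0.98, and F11r correlated negatively with both (r = -0.74 and -0.75). Icam1 kept other company: Tiparp (r = 0.98), Socs3 and Atf3, all induced early after stimulation of many cell types. The genes most like the remaining members were Arl2bp, Sav1 and Yipf1 for Icam2, Slc44a1, Socs2 and Heg1 for Pecam1, Dusp6, Tbxa2r and Igfbp3 for F11r, and Vasp, Snhg6 and Plxnd1 for Cd34. These values describe the means of 12 clusters that share their libraries and depth. Sele and Selp averaged 7.21 and 16.65 CPM over all ECs, under the 20 CPM asked of the genes compared with them. Their r values therefore rest mainly on vein and endocardial ECs and artery cluster E11. Vwf is also among the markers that named vein ECs.

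**Figure D2:**
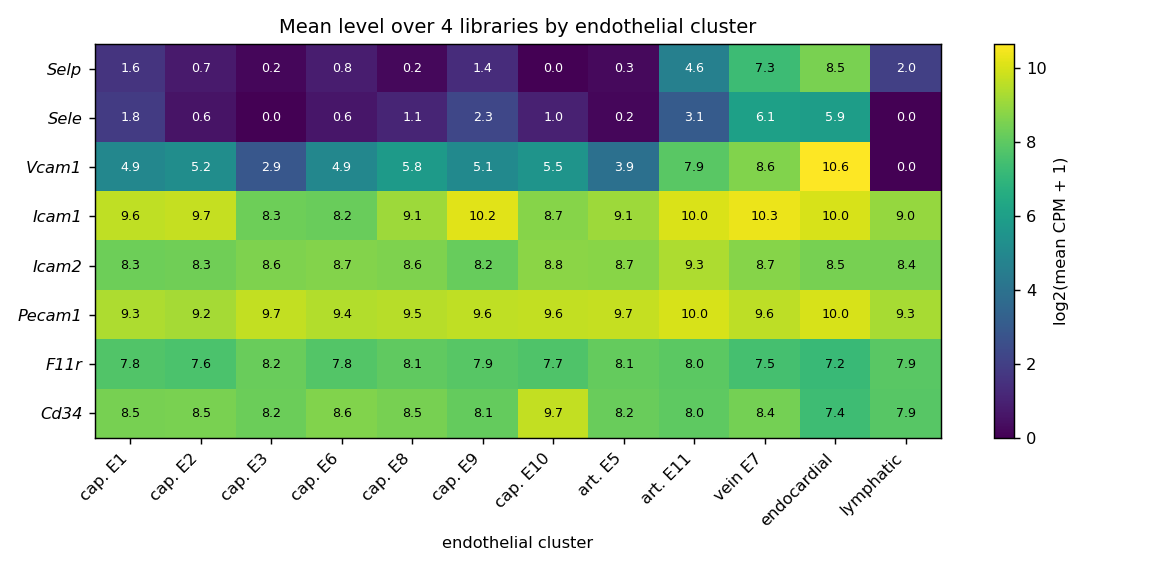
Mean level over 4 libraries, as log2(mean CPM + 1), of each transcript (rows) in the 10 capillary (cap.), artery (art.) and vein clusters and the endocardial and lymphatic classes (columns). The values printed in the cells show the selectins and Vcam1 in artery cluster E11, vein and endocardium, and Cd34 highest in capillary cluster E10.

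With HFpEF, the selectin transcripts rose in vein ECs. Sele was counted 95 and 48 times in vein ECs under NC, compared with 35 and 338 times under HFpEF, or 38.2, 29.5, 74.3 and 121 CPM. The diets did not overlap, and Sele was 3.05-fold higher in HFpEF (log2 1.61 ± 0.22 SE, adjusted p = 0.00125 by edgeR's quasi-likelihood test, adjusted after Benjamini and Hochberg). Selp was counted 257, 108, 86 and 748 times in the same order, again with higher CPM in both HFpEF libraries. Its fold change was 2.70 (log2 1.43 ± 0.21 SE, edgeR adjusted p = 0.00228). Sele and Selp were thus 2 of the 78 genes called among 9570 tested in vein ECs, where 0.731% of all genes were called as higher in HFpEF and 2 of the 8 members were. Without HFpEF library 2 the Sele change was 1.14 on the log2 scale and lost its call (edgeR adjusted p = 0.0566), and Selp was at 1.12 (edgeR adjusted p = 0.00740). In these and all later fits without 1 library, the arm it came from held a single library that was assumed to vary like the other arm.

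The UMIs of the selectins came from a minority of vein ECs. Sele was found in 29 of 497 and 15 of 306 vein ECs of the NC libraries and in 17 of 190 and 114 of 923 of the HFpEF libraries, and the single richest cell held 5.92% to 22.9% of a library's Sele UMIs. For Selp the richest cell held 8.29% to 24.4%. After each cell was thinned to 1000 UMIs, to remove the difference in depth, a Sele UMI was found in 2.48% and 1.33% under NC, compared with 4.02% and 7.97% of vein ECs under HFpEF. The exact Clopper-Pearson 95% intervals were 1.29 to 4.29%, 0.363 to 3.37%, 1.63 to 8.11% and 6.22 to 10.0%, so only HFpEF library 2 lay clear of both NC libraries. Selp was found in 5.37% and 4.65% under NC, compared with 10.3% and 11.4% of vein ECs under HFpEF at that depth. Its intervals were 3.54 to 7.77%, 2.57 to 7.68%, 6.25 to 15.9% and 9.27 to 13.7%. Again only HFpEF library 2 lay clear of both NC libraries. Unthinned, Selp was found in 9.26%, 11.4%, 17.9% and 15.7%. By comparison, no Sele or Selp UMI was found in 129 thinned B cells or 89 thinned T cells, which should lack both. They allow shares of up to 2.33% and 3.37%, from medians of 3265 and 3662 UMIs per cell against 3376 in vein ECs. Both limits lie above the 1.33% for Sele in NC library 2, and the T cell limit also above the 2.48% in NC library 1. They therefore cannot set the Sele shares of vein ECs under NC apart from background. Of 945 thinned pericytes, 4 had a Sele UMI and 1 a Selp UMI, and unthinned 1 of 145 B cells had a Sele UMI. Within vein ECs the 2 selectins met in the same cells: 34 of 89 cells with a Sele UMI also had a Selp UMI (38.2%), against 118 of 1698 cells without one (6.95%). The first share was the higher in each of the 4 libraries, but on few cells. It was 4 of 12 and 2 of 4 cells under NC, compared with 1 of 7 and 27 of 66 under HFpEF. This was not particular to the selectins. A Vcam1 UMI was found in 48.3% of cells with Sele against 22.3% without, and in 54.6% with Selp against 20.7% without. For Icam1 it was 77.5% with Sele against 60.7% without.

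**Figure D3:**
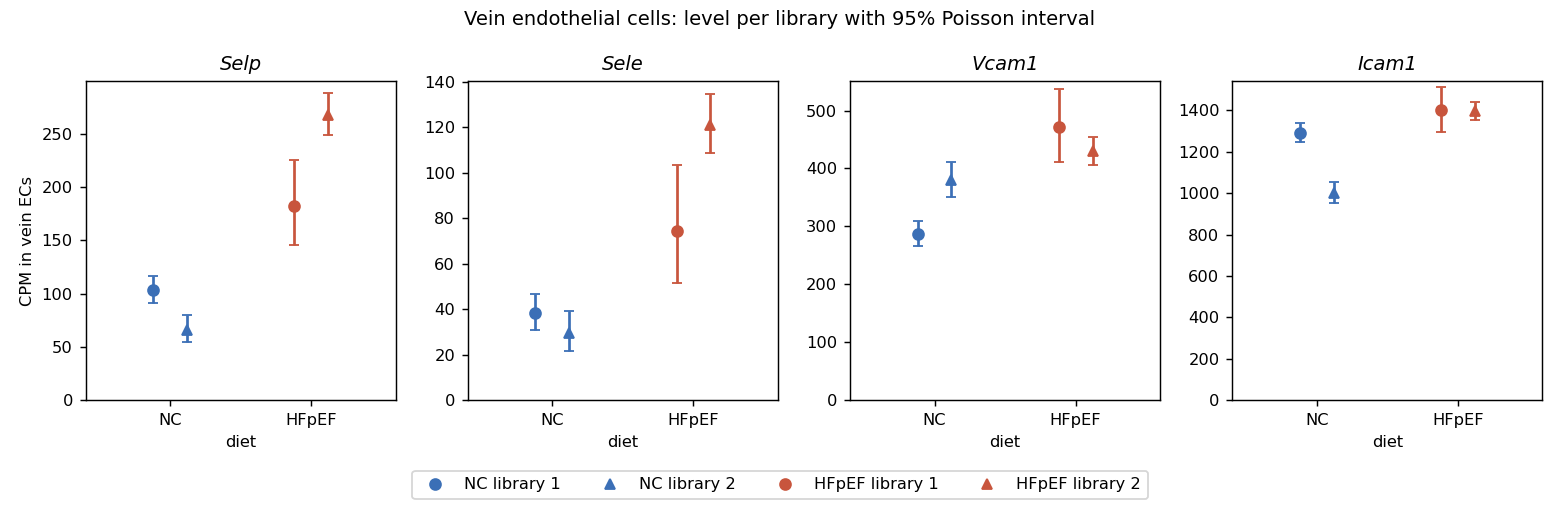
CPM in vein ECs for each library, with 95% Poisson intervals that cover counting error only, by diet. Selp and Sele lie higher in both HFpEF libraries with intervals apart from those of the NC libraries, whereas for Vcam1 the interval of NC library 2 reaches that of HFpEF library 2.

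Markers of other cells were summed in the same vein ECs. Platelets also store P-selectin, and the 4 platelet markers summed to 24.1 and 27.6 CPM under NC, compared with 31.8 and 21.1 CPM under HFpEF, with 2 to 3 of 4 detected. The 6 T cell markers summed to 0.402, 0.614, 0 and 2.15 CPM. The 5 neutrophil markers reached 51.9 CPM in HFpEF library 2 against 0.402 to 3.68 CPM in the other 3, and their part in the result was not tested. The 10 vein markers summed to 1193 and 1488 CPM under NC and to 1297 and 1503 CPM under HFpEF, but single markers differed. Tmem252 was at 41.4 and 26.7 scaled CPM against 47.9 and 83.8 (log2 1.06 ± 0.25, edgeR adjusted p = 0.0556), and Lbp changed by 0.52 ± 0.21 (edgeR adjusted p = 0.331). Ackr1, a chemokine receptor of venules, had 9, 3, 0 and 56 UMIs and was not tested. None of the other 7 was called (edgeR), among them Ephb4 with a log2 change of -0.32, Vwf with -0.10 and Nr2f2, a transcription factor of venous identity, with 0.16. The part of these markers in the selectin result was not tested. In a bulk sum of cells, more cells with a selectin and more selectin RNA per cell cannot be told apart by the CPM alone.

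The arrest molecules changed less. In vein ECs Vcam1 was at 287.7 and 379.4 CPM under NC, compared with 471 and 430 CPM under HFpEF, without overlap, and its log2 change of 0.43 ± 0.18 was not called (edgeR adjusted p = 0.349). Icam1 was at 1293 and 1002 CPM against 1403 and 1399 CPM, a log2 change of 0.29 ± 0.17 (edgeR adjusted p = 0.539). The groups did not overlap for 4 of the 8 members in vein ECs, each higher in HFpEF, but this held in the same direction for 21.2% of all genes tested. Icam2, Pecam1, F11r and Cd34 overlapped between the diets, with log2 changes between -0.07 and 0.25 and no call.

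In capillary ECs no member was called (edgeR, adjusted p under 0.05) and 0.913% of 12263 genes were. Vcam1 came closest, at 17.5 and 22.7 CPM under NC, compared with 31.4 and 34.4 CPM under HFpEF, without overlap (log2 0.73 ± 0.14, edgeR adjusted p = 0.0582). DESeq2 called it, at 0.73 with an adjusted p of 0.0201. The capillary class had another make-up in HFpEF: cluster E2, led by Cxcl10, Cxcl2 and Plaur, held 2.91% and 3.26% under NC, compared with 32.3% and 37.0% of capillary ECs under HFpEF, while E1, E3 and E6 held most NC cells. Within E1, Vcam1 was at 17.6 and 20.4 CPM under NC, compared with 40.2 and 39.1 CPM under HFpEF, and within E6 at 21.6 and 19.5 against 41.1 and 35.9 CPM. Within E2 the order was not the same, with 15.5 and 73.1 CPM in NC, from 5 and 31 UMIs, and 22.4 and 31.8 CPM in HFpEF libraries. With all 7 clusters weighted equally the change in Vcam1 was 0.40 on the log2 scale, and 5 of 7 clusters were higher in HFpEF. Sele and Selp were near the floor in capillary ECs. Sele had 7, 6, 4 and 88 UMIs, of which 61 of the 88 lay in cluster E1. It passed the count filter only through the HFpEF libraries, where its CPM was higher, so its change is given by these counts and not by a test. Selp had 19, 3, 7 and 46 UMIs (log2 1.49 ± 0.65, edgeR adjusted p = 0.239).

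Icam1 in capillary ECs was at 578 and 470 CPM under NC, compared with 560 and 742 CPM under HFpEF, which overlapped (log2 0.32 ± 0.16, edgeR adjusted p = 0.290). Without HFpEF library 1 the change was 0.49 and called (edgeR adjusted p = 0.0455). With the 7 clusters weighted equally it was 0.03. Capillary Icam2, Pecam1, F11r and Cd34 had log2 changes between -0.15 and 0.06 with standard errors of 0.11 to 0.12, and their libraries overlapped between the diets.

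In artery ECs none of the 7 members that passed the count filter was called (edgeR), against 0.130% of 10735 genes, and none had an unadjusted p under 0.05, against 11.6% of those genes. Sele had 9, 0, 5 and 3 UMIs and was not tested. Vcam1 was at 47.9 and 84.3 CPM under NC, compared with 61.7 and 62.8 CPM under HFpEF. The Vcam1-rich cluster E11 held 16.6%, 27.3%, 18.2% and 17.7% of the artery ECs in the same order, and the Vcam1 level within E5 was 10.2 to 11 CPM under NC, below the 17.2 and 18.3 CPM under HFpEF. Within E11 it was at 212 and 261 CPM under NC, compared with 233 and 265 CPM under HFpEF. The diet change of 3 members was tested as lower in artery than in capillary ECs in a fit with a class by diet term (edgeR, 0.225% of 11569 genes called): Vcam1 by -0.80 on the log2 scale (adjusted p = 0.0153), Selp by -2.74 (adjusted p = 0.0281) and Icam1 by -0.47 (adjusted p = 0.0488). Without HFpEF library 2 none of the 3 was called (edgeR adjusted p = 0.951 for Vcam1 and Icam1 and 0.959 for Selp), and without NC library 2 Vcam1 (edgeR adjusted p = 0.572) and Icam1 (edgeR adjusted p = 0.394) were not. The vein and capillary changes of no member differed with a call in the same fit (edgeR, 0.0346% called), with -0.34 for Vcam1 (adjusted p = 0.960). The capillary counts of Sele and Selp were near the floor, so this fit cannot decide for the selectins. Their rise was not shown to be particular to veins. Over ECs of all classes together, Sele changed by 1.57 ± 0.40 and Selp by 1.36 ± 0.41 on the log2 scale and neither was called (edgeR adjusted p = 0.125 and 0.151, with 0.116% of 12937 genes called). Without HFpEF library 1 both were called, at 1.90 and 1.53 (edgeR adjusted p = 0.00846 and 0.0490), and without NC library 1 Selp was, at 2.28 (edgeR adjusted p = 0.0372).

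**Figure D4:**
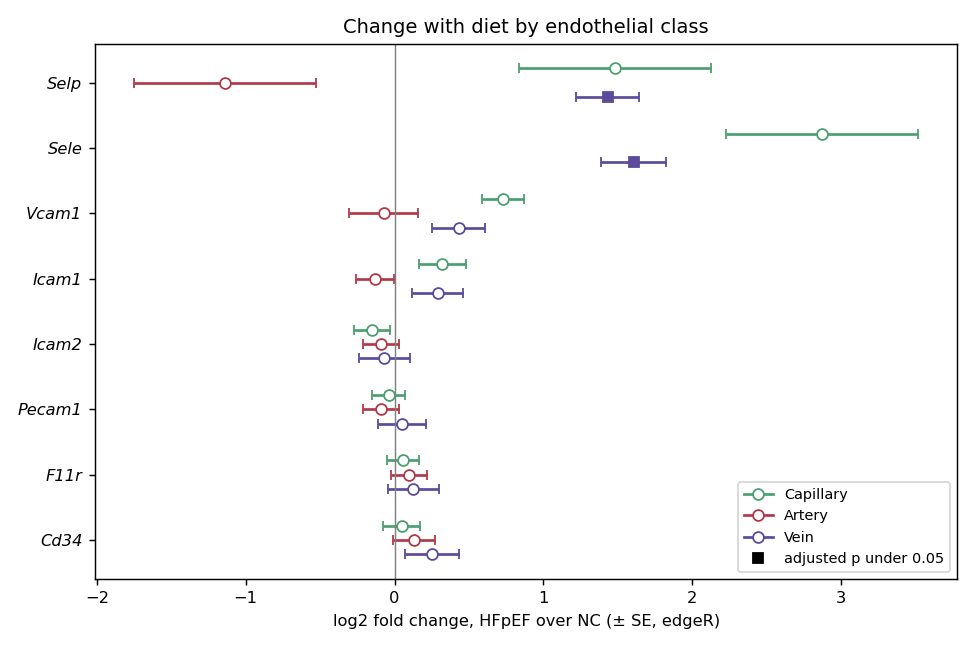
Log2 fold change of HFpEF over NC with its standard error from edgeR, by gene and class; filled squares are adjusted p under 0.05 and open circles are not called, Sele was not tested in artery ECs, and its capillary point rests on a count filter passed only through HFpEF libraries. The filled points are Selp and Sele in vein ECs, and the lower 4 genes lie close to 0 in the 3 classes.

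Endocardial and lymphatic ECs had fewer than 50 cells in at least 1 library and were not tested. In endocardial ECs Sele had 12, 6, 6 and 29 UMIs in the 4 libraries. It was at 37.4 and 19.2 CPM under NC, compared with 98.6 and 85.7 CPM under HFpEF. Selp was at 106 and 16.0 against 904 and 405 CPM. How many of all genes were likewise higher in both HFpEF libraries of this class was not counted. At 1000 UMIs per cell the Sele shares overlapped, with 4.08% and 1.96% under NC, compared with 0% (of 18 cells) and 6.90% under HFpEF. Those of Selp were 10.2% and 1.96%, compared with 11.1% and 24.1%. The 904 CPM rest on 55 UMIs in 20 cells, 48 of them in 1 cell. Endocardial Vcam1 was at 1710 and 1399 CPM under NC, compared with 1841 and 1442 CPM under HFpEF, which overlapped.

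Of 7 lists of genes that act with these molecules, 2 had a called member in vein ECs, or 2 of the 74 genes tested, both higher, against 0.731% of all genes. Among junction and transmigration molecules 1 of 16 tested was called: Epha2, a receptor tyrosine kinase that loosens endothelial junctions, at 30.6 and 26.7 scaled CPM in NC and 65.4 and 59.4 in HFpEF libraries (log2 1.08 ± 0.21, edgeR adjusted p = 0.0184). Among 20 inducers and regulators 1 was called: Tnfaip3, which encodes the NF-κB inhibitor A20, with 38.6 and 28.5 against 67.6 and 72.5 scaled CPM (log2 1.06 ± 0.21, edgeR adjusted p = 0.0233). Both rose. The median log2 change of the inducers and regulators, a list that mixes activators with inhibitors such as Tnfaip3, was 0.10 against -0.01 over all genes tested. Its genes went both ways. Ifngr1 changed by -0.44 ± 0.17 and Klf2 by -0.40 ± 0.19, both singled out after their values were seen and neither called. None of 7 selectin ligands and their enzymes, 10 other adhesion molecules, 14 docking and cytoskeletal genes or 6 sheddases was called in vein ECs, with list medians of 0.00, -0.01, 0.04 and 0.18. Podxl and Emcn, sialomucins of the endothelial surface, changed by -0.08 ± 0.16 and 0.03 ± 0.18, and Adam10, which sheds several adhesion proteins, by 0.40 ± 0.16 (edgeR adjusted p = 0.347). Of 11 leukocyte counter-receptors Itgb1 alone passed the count filter. In capillary ECs none of the 81 tested genes of these lists was called (edgeR), against 0.913% of all genes.

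Antisense genes overlap Icam1, Vcam1, Selp and Cd34 in the annotation. Those of Vcam1, Selp and Cd34 had at most 15 UMIs per library over all ECs. Icam1 lies at chr9:21015985-21028817 on the plus strand of GRCm38. Gm47079, its antisense neighbour, singled out after its values were seen, was counted 11 and 4 times in NC and 5 and 128 times in HFpEF vein ECs. There it passed the count filter only through the HFpEF libraries, so its change is given by these counts and not by a test. Its artery counts were low as well, at 13 and 9 under NC, compared with 11 and 130 under HFpEF, and are given without a test. In capillary ECs Gm47079 changed by 2.87 ± 0.60 (edgeR adjusted p = 0.0642). Over all ECs it had 76 and 37 UMIs under NC, compared with 44 and 802 under HFpEF. The kit marks strand and Gm47079 lies on the other strand from Icam1, but no test told the reads of the 2 genes apart.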

How the data were processed

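Single-cell RNA was read with the 10x 3′ v3 chemistry in 4 libraries of RFP-positive left ventricular cells. The authors trimmed reads with fastp, aligned them to mm10 with Cell Ranger 5.0.1 and evened read depth between samples before aggregating them, and deposited whole-number UMI counts per gene and cell. The 8 genes, the gene lists and the tests were chosen with earlier results of these data known. Cells with over 200 genes and under 20% mitochondrial UMIs were kept, as in the study's methods. They were clustered at resolution 0.8 by the multilevel method of igraph 0.11.9 and classed by marker genes. The 8 genes, hemoglobin genes and mitochondrial genes were left out of the clustering. For the EC clusters the markers of other cell types and a few further blood and heart muscle genes were left out too. These names were rebuilt and may differ from those of the study. Doublets were kept, and leaving out the cells with the highest Scrublet scores (scanpy 1.11.5) was an alternative, since the automatic threshold called none in 3 of the libraries. Counts were summed per library and class. HFpEF was compared with NC in edgeR 4.0.16 (R 4.3.3) by the quasi-likelihood test with diet as the only term, TMM factors, filterByExpr, Benjamini-Hochberg adjustment over all genes tested and a threshold of 0.05. SE is the log2 change divided by the square root of F. A fit over capillary, artery and vein sums with a class by diet term tested whether changes differed. Intervals are 95% exact Poisson or Clopper-Pearson intervals that cover counting error only. Scaled CPM uses TMM factors, and CPM does not. Genes other than the 8 were named where a list gene was called, otherwise from the first 5 tested of a list. Others were named as the 3 most alike in pattern (log2(CPM + 10), at least 20 CPM over all ECs), or as class markers. Ifngr1, Klf2 and Gm47079 were named after their values were seen. Alternatives were RLE factors or library size alone, no count filter, DESeq2 1.42.0, the library number as a block, each library left out, stricter cell filters (over 500 genes, under 10% mitochondrial UMIs), mitochondrial genes, hemoglobin-rich cells or doublets left out, cells thinned to 1000 or 500 UMIs, and resolutions of 0.4 and 1.2. Total UMIs per library ran from 11163876 to 48003732. Genotype was not analysed here.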

Additional observations from a re-analysis of the deposited data

Results flagged for a closer look

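The diet changes of 3 members differed between artery and capillary ECs when the difference itself was tested in edgeR (class by diet term, 11569 genes). The difference, artery minus capillary, was -0.802 on the log2 scale for Vcam1 (adjusted p = 0.0153), -2.74 for Selp (adjusted p = 0.0281) and -0.473 for Icam1 (adjusted p = 0.0488). All 3 lost their call without HFpEF library 2, and Vcam1 and Icam1 did so without NC library 2. Selp rested on 5 to 50 UMIs per library in artery ECs and on 3 to 46 in capillary ECs. The artery UMIs came from 6, 5, 1 and 12 cells, of which the richest held 50%, 73.3%, 100% and 26.3%. After thinning to 1000 UMIs per cell its difference was -1.44 (edgeR adjusted p = 0.943). The share of artery cluster E11, which holds most of the Vcam1 and Selp of artery ECs, was 27.3% in NC library 2 against 16.6% to 18.2% in the other libraries, and its part in the result was not tested.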

How the results depend on the processing

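Sele and Selp stayed called in vein ECs under every alternative run except Sele without HFpEF library 2 (1.14, edgeR adjusted p = 0.0566). The counts of genes called moved more. Over all ECs (15) they were 9 with library size only, 1141 without a count filter, 351 with DESeq2, 36 with stricter cell filters, 89 thinned, 42 and 8 at resolutions 0.4 and 1.2, and 13 to 328 with 1 library left out. In capillary ECs (112) they were 1200, 321 and 50 without a filter, with DESeq2 and with stricter cells, 40 and 1 at the 2 resolutions, 1 with the unclassed clusters included (added after seeing the data) and 9 to 1120 with 1 library left out. In artery ECs (14) they were 291 without a filter, 37 with DESeq2, 22 thinned, 66 and 22 at the 2 resolutions and 2 to 108 with 1 library left out. In vein ECs (78) they were 219 without a filter, 27 with DESeq2, 12 thinned, 154 at resolution 0.4 and 59 to 219 with 1 library left out. For artery minus capillary (26) they were 73 without a filter, 11 thinned and 1 to 75 with 1 library left out, and for vein minus capillary (4) 38, 7 and 2 to 18. The library numbers were not shown to pair samples (correlation of same-numbered deviations 0.04 over all ECs and -0.10 in vein ECs, 2 pairs). Whether the numbers follow genotype is not given by the labels. With the number as a block 432, 121, 165 and 43 genes were called in all, capillary, artery and vein ECs. Over all ECs Sele (1.58, edgeR adjusted p = 0.0171) and Selp (1.51, edgeR adjusted p = 0.0087) were then called. Signs turned for uncalled changes: artery Vcam1 was 0.0062 without doublets and 0.19 and 0.081 at the 2 resolutions, thinned artery F11r -0.022, vein Icam2 0.064 at resolution 0.4, capillary Cd34 -0.052 with clusters weighted equally (added after seeing the data), thinned artery minus capillary Pecam1 0.017 and F11r -0.11, and vein minus capillary Selp -0.014 without a filter. With 1 library left out, changes ran over all ECs from -0.12 to 0.0026 for Pecam1, -0.0071 to 0.15 for F11r and -0.073 to 0.20 for Cd34, in capillary ECs from -0.11 to 0.022, -0.011 to 0.13 and -0.098 to 0.18 for the same genes, in artery ECs from -0.43 to 0.39 for Vcam1, -1.81 to 0.045 for Selp and -0.064 to 0.28 for Cd34, and in vein ECs from -0.23 to 0.056 for Icam2, -0.025 to 0.13 for Pecam1 and -0.0063 to 0.43 for Cd34. Artery minus capillary ran from -0.029 to 0.12 for Icam2, -4.41 to 2.64 for Sele, -0.029 to 0.070 for F11r and -0.041 to 0.15 for Cd34, and vein minus capillary from -0.25 to 0.15 for Icam1, -1.51 to 0.19 for Sele, -1.44 to 0.50 for Selp and -0.11 to 0.14 for F11r. The log2 ratio of vein to capillary ECs was 4.10 for Vcam1, -0.59 for F11r and 0.014 for Cd34 after thinning, and 4.19 for Vcam1 and 6.67 for Selp at resolution 0.4. The mean share of vein ECs with a UMI was 39.7% for Icam1 and 15.4% for Vcam1 at 500 UMIs and 82.3%, 44.3%, 8.01% and 13.6% for Icam1, Vcam1, Sele and Selp unthinned. The causes were not tested. Low counts limit Sele and Selp outside vein ECs, endocardial ECs included.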

Other observations

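Outside the endothelium, Vcam1 was at 341 ± 87.7 CPM (SD, n = 4 libraries) in 116 fibroblasts, and Cd34 at 634 ± 116 CPM, above the 361 CPM of capillary ECs. Proliferating cells were classed apart and not placed inside or outside the endothelium. They held 5987 CPM of the 9 markers of ECs of any class, but pericytes held 6486 CPM and B cells 4473 CPM. This level therefore does not identify them as ECs. Cd34 was at 652 ± 70.6 CPM in proliferating cells. Fibroblasts, macrophages, B cells and T cells had no Selp UMI, which allows up to 6.13, 13.8, 5.19 and 7.32 CPM (3 UMIs, counting error only). These limits lie above the mean of 1.06 CPM in capillary ECs, so the cells are not set apart from those ECs. Cd34 and Icam2 were also counted in B cells (256 and 186 CPM) and T cells (131 and 161 CPM), which carried 18680 and 14370 CPM of the 11 capillary markers.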
